A study of Mus musculus with 4 samples.

Results

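This account follows 10 mouse genes that take up, store, export and sense iron, or release it from haem, among the 19938 genes with a named probe set on the array. They were picked by gene symbol: Trf, Tfrc, Steap3 and Slc11a2 for uptake, Fth1 for storage, Slc40a1 and Cp for export, Aco1 and Ireb2 for regulation, and Hmox1 for haem breakdown. The choice was made knowing that Tfrc differs between the tumour genotypes, so the values of the 10 genes between genotypes are given as a description with no test. Each gene had exactly 1 probe set with its symbol alone, and all of their levels lay above the lower quartile of the array.

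RNA was measured on 4 Affymetrix arrays, 1 for each tissue sample. The tumours were 1 medulloblastoma sample of PtchLacZ/+ genotype at an age of 5 months and 2 of Math1-Cre;SmoM2 genotype at 2 months and 1 month. They were set against 1 sample of whole wild-type cerebellum at 2 months. All mice had a mixed background of C57BL/6 and C3H strains, and the tumours arose without further treatment. Medulloblastoma is a cerebellar tumour, here of the kind driven by Hedgehog signalling. In PtchLacZ/+ mice 1 allele of Ptch1, the receptor that restrains the pathway, carries lacZ in the germline. In Math1-Cre;SmoM2 mice Cre acts in the Math1 (Atoh1) lineage and switches on SmoM2, an active form of the signal transducer Smoothened. The PtchLacZ/+ tumour is a single sample, its age differs from that of the SmoM2 tumours, and genotype and age cannot be told apart. Nothing in the labels says whether any sample was pooled.

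Cells take up iron mainly as transferrin, which binds the transferrin receptor Tfrc and is internalised. The iron is then reduced by Steap3 and leaves the endosome through Slc11a2 (DMT1). Spare iron is kept in ferritin, whose heavy chain is Fth1, and leaves the cell through ferroportin, Slc40a1, with the ferroxidase ceruloplasmin, Cp. The iron regulatory proteins Aco1 and Ireb2 bind hairpins in mRNAs when iron is scarce, which stabilises Tfrc mRNA and blocks translation of ferritin mRNA. In brain, transferrin is made largely by oligodendrocytes and choroid plexus, and the endothelium carries Tfrc to bring iron in from blood.

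Values are the deposited array levels on a log2 scale, so that 1 unit is a doubling. They are compared within a probe set only, since probe sets differ in brightness. The array medians over named genes lay between 6.73 and 6.82, and the lower quartiles, under which a level is not shown to be above background, lay between 5.09 and 5.17. Marker lists, chosen with earlier results of these data known, were read to set the tumours beside the cerebellum. They do not check the genotype or age labels. All 7 measured proliferation markers rose in the tumours. Of 7 granule progenitor markers 5 rose, while Zic1 and Pax6 differed by -0.17 and 0.29 and did not pass. The largest difference of that list was that of Atoh1. Atoh1 had levels of 11.98 in the PtchLacZ/+ tumour, 11.84 and 11.39 in the SmoM2 tumours at 2 months and 1 month, and 4.85 in the cerebellum. All 7 mature granule neuron markers were lower in every tumour than in the cerebellum, and 4 of them passed the test. In these whole tissues, fewer cells of a type and less RNA per cell cannot be told apart.

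**Figure D1:**
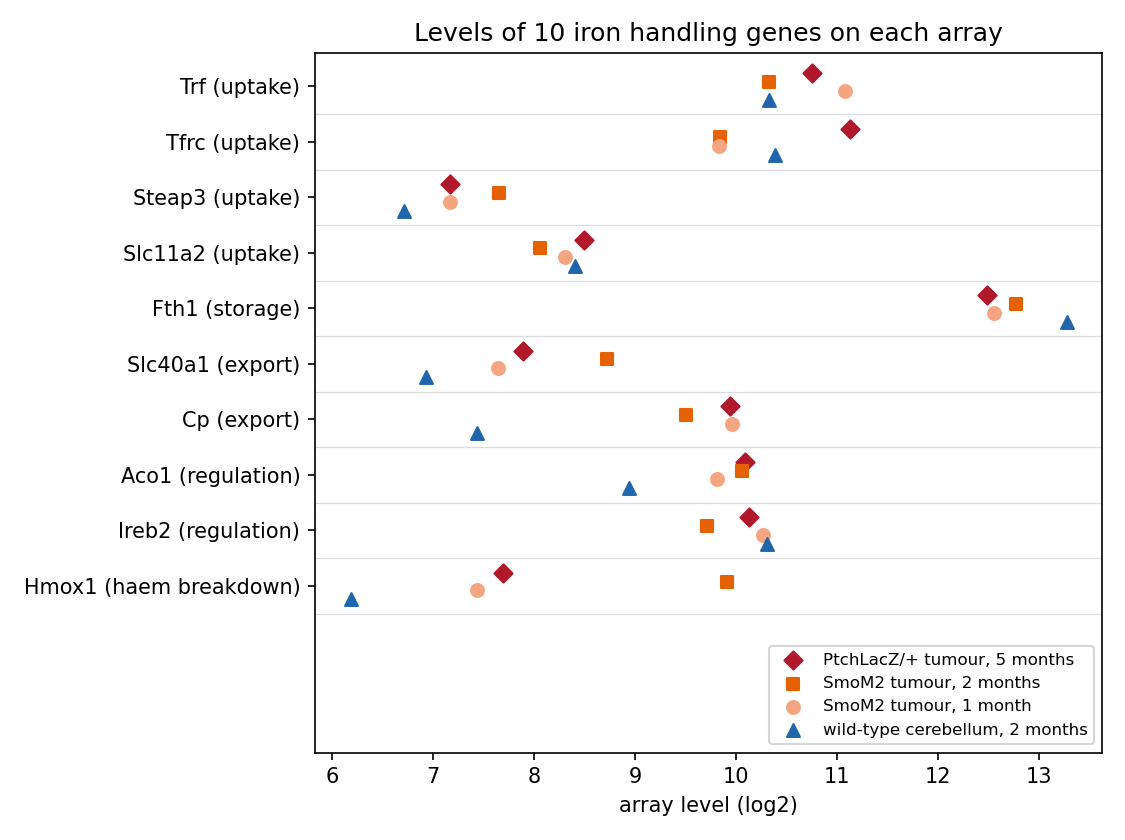
Array levels (x axis, log2) of the 10 iron handling genes (y axis, with role) in the PtchLacZ/+ tumour, the SmoM2 tumours at 2 months and 1 month, and the wild-type cerebellum, 1 symbol for each array. Cp and Aco1 lie higher in every tumour than in the cerebellum, Tfrc stands highest in the PtchLacZ/+ tumour, and Hmox1 and Slc40a1 stand highest in the 2-month SmoM2 tumour.

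The first comparison asked which iron genes set the 3 tumours apart from the cerebellum. Of the 10 genes, 2 rose in the tumours, the ceruloplasmin gene Cp and the iron regulatory gene Aco1, and 0 fell, by limma's moderated test with Benjamini-Hochberg adjustment over all 19938 genes at a threshold of 0.05. Over all genes, 6.70% rose and 9.30% fell by the same rule, while 2 of 10 is 20.0% of a very small set. At an unadjusted p under 0.05, 3 of the 10 genes were higher (Cp, Aco1 and Slc40a1) and 1 was lower (Fth1), where 13.8% of all genes were higher and 15.9% lower at the same threshold. The median difference of the 10 genes was 0.51 on the log2 scale, against 0.04 for all genes. The error comes from the differences among the tumours, and no second cerebellum was there to show its own spread.

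Without any test, all 3 tumours lay above the cerebellum for 6 of the 10 genes, where 38.1% of all genes did so. These were Trf, Steap3, Slc40a1, Cp, Aco1 and Hmox1, although Trf in the 2-month SmoM2 tumour exceeded the cerebellum by only 0.0029. All 3 lay below it for Fth1 and Ireb2, 2 of the 10, where 32.0% of all genes did so. Tfrc and Slc11a2 were split.

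Transferrin receptor mRNA was higher in the PtchLacZ/+ tumour than in either SmoM2 tumour. Tfrc, on chromosome 16, had a level of 11.13 in the PtchLacZ/+ tumour, 9.84 and 9.83 in the SmoM2 tumours at 2 months and 1 month, and 10.38 in the cerebellum. The PtchLacZ/+ tumour was above the cerebellum by 0.75, and both SmoM2 tumours were below it, by 0.54 at 2 months and 0.55 at 1 month. The SmoM2 tumours lay 0.0107 apart, while the PtchLacZ/+ tumour exceeded their mean by 1.30, a ratio of 2.45. This difference is the one that was known when the genes were chosen. As a group the 3 tumours differed from the cerebellum by -0.12 ± 0.57 (SE, adjusted p = 0.932), a value near 0 that took the opposite sign after quantile normalization, at 0.01. The gap between the genotypes enters its standard error.

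Of the 10 genes, Tfrc alone lay outside the SmoM2 range and at least 1 unit from the SmoM2 mean. By that rule 0.261% of all genes were higher in the PtchLacZ/+ tumour and 0.577% were lower. Position outside the SmoM2 range at any distance was common, with 3 of the 10 genes above it and 2 below, against 23.8% and 31.1% of all genes. Slc11a2 exceeded the nearer SmoM2 tumour by 0.19 and Aco1 by 0.02, and Fth1 and Steap3 differed from the nearer one by -0.07 and -0.0059.

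Marker lists of other cells were read beside Tfrc. The median difference, PtchLacZ/+ tumour minus SmoM2 mean, was 0.41 for 7 granule progenitor markers, 0.14 for 7 proliferation markers and 0.29 for 10 microglia and macrophage markers. It was -0.33 for 8 endothelial markers, -0.74 for 9 mature oligodendrocyte markers and -0.64 for 7 mature granule neuron markers. For 8 astrocyte and Bergmann glia markers it was -0.74, and for 8 choroid plexus markers it was 0.27. By the rule above, 3 astrocyte and Bergmann glia markers and 3 mature granule neuron markers (Gabra6, Cbln3 and Vsnl1) were lower. So was 1 mature oligodendrocyte marker (Mag), and 1 microglia and macrophage marker was higher (Itgam). Of the choroid plexus markers 1 was higher (Otx2) and 1 lower (Clic6). For granule progenitor, proliferation and endothelial markers the count was 0. The summed unlogged level of the endothelial markers was 1547 in the PtchLacZ/+ tumour, 2688 and 1510 in the SmoM2 tumours at 2 months and 1 month, and 2818 in the cerebellum. The sum in the PtchLacZ/+ tumour thus lay between those of the SmoM2 tumours. Gene by gene, Tek lay above the SmoM2 range, Slc2a1 and Abcb1a lay below it, and the other endothelial markers lay within it. Of 9 erythroid markers, 2 were measured, Slc4a1 and Epb42, and their summed level was 82.0 in the PtchLacZ/+ tumour, 77.9 and 77.1 in the SmoM2 tumours at 2 months and 1 month, and 79.4 in the cerebellum. The part of these cells in the Tfrc difference was not tested.

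Among 9968 other genes with a mean level above the median, the 3 with the profile closest to that of Tfrc over the 4 arrays were Prmt8, Alms1 and Chrd. Likeness was measured as the Euclidean distance between profiles centred on their means, and it was 0.24, 0.40 and 0.44 log2 units for these genes. Prmt8, an arginine methyltransferase gene, had levels of 10.52 in the PtchLacZ/+ tumour, 9.20 and 9.40 in the SmoM2 tumours at 2 months and 1 month, and 9.61 in the cerebellum. With 4 arrays such a match is a description only.

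The promoter windows of Tfrc, Cp and Aco1 are shown because these genes carry the differences between genotypes and between tumour and cerebellum. Each runs from 150 bases before to 30 after the first listed start in RefSeq (mouse build GRCm38.p6, plus strand). Both Tfrc and Cp are known targets of the hypoxia-inducible factors. Therefore ACGTG, a 5-letter form of the core of their binding site, was searched on both strands and is in capitals where found. The form GCGTG was not searched.

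Tfrc, chr16:32608746-32608925: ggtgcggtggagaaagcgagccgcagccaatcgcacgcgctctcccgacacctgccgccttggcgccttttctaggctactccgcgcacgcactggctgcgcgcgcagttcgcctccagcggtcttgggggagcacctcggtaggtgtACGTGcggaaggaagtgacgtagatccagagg

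Cp, chr3:19956904-19957083: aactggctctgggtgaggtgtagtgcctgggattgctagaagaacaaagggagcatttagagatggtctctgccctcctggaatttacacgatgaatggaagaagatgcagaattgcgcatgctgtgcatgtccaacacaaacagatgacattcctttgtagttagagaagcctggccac

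Aco1, chr4:40143115-40143294: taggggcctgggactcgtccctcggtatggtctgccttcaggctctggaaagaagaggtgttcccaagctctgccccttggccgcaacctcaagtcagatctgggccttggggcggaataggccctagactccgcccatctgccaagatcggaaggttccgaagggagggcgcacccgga

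The form ACGTG was found once in the Tfrc window, where it begins 2 bases before the listed start, and its letters are absent from the Cp and Aco1 windows. A window was at hand for 6 of the 10 genes, with 12 listed starts, and only this Tfrc window held ACGTG. That form is present in 13.4% of the windows of the same length over 27025 genes. The windows had a GC content of 66.1% for Tfrc, 47.8% for Cp and 62.2% for Aco1, against a median of 53.9% over all genes. A match says only that the letters are there.

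The other uptake genes did not pass against the cerebellum. Trf, on chromosome 9, encodes transferrin and had levels of 10.75 in the PtchLacZ/+ tumour, 10.33 and 11.08 in the SmoM2 tumours at 2 months and 1 month, and 10.33 in the cerebellum. The 1-month tumour was highest, and the difference from the cerebellum, 0.39 ± 0.32, did not pass (adjusted p = 0.514). Markers of both cell types that make transferrin were read beside it. Of 9 measured mature oligodendrocyte markers, 8 fell, and their summed unlogged level was 1205 in the PtchLacZ/+ tumour, 2030 and 2181 in the SmoM2 tumours at 2 months and 1 month, and 7611 in the cerebellum. Of 8 choroid plexus markers 0 passed by limma (1 was higher and 1 lower at an unadjusted p under 0.05), and their summed level was 3144 in the PtchLacZ/+ tumour, 719 and 3481 in the SmoM2 tumours at 2 months and 1 month, and 604 in the cerebellum. The defining choroid plexus gene Ttr had levels of 10.81 in the PtchLacZ/+ tumour, 4.50 and 11.27 in the SmoM2 tumours at 2 months and 1 month, and 6.23 in the cerebellum. Otx2, another gene of that list, is also active in granule progenitors. Without Ttr and Otx2, a split made after the values were seen, the other 6 markers summed to 366.2 in the PtchLacZ/+ tumour, 421.5 and 424.6 in the SmoM2 tumours at 2 months and 1 month, and 373.3 in the cerebellum. The low sum of the 2-month tumour was thus not seen in the sum of these 6. Gene by gene, Kl, Folr1 and Kcnj13 were, like Ttr, lowest of the tumours at 2 months. Kl (4.77) and Kcnj13 (4.97) lay under the lower quartile there. Of all 8 choroid plexus markers, 2 were higher at 2 months than at 1 month, with a list median of -0.57. Clic6 and Cldn2 were highest in the 2-month tumour, where Ttr and Trf were lowest of the tumours, and Kcnj13 was lower in every tumour than in the cerebellum. The part of choroid plexus in the Trf level was not tested.

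Steap3, the endosomal ferrireductase gene on chromosome 1, had levels of 7.17 in the PtchLacZ/+ tumour, 7.66 and 7.17 in the SmoM2 tumours at 2 months and 1 month, and 6.71 in the cerebellum. All 3 tumours lay above the cerebellum, but the difference of 0.62 ± 0.26 did not pass (adjusted p = 0.202). Slc11a2, the endosomal iron transporter gene on chromosome 15, had levels of 8.50 in the PtchLacZ/+ tumour, 8.06 and 8.30 in the SmoM2 tumours at 2 months and 1 month, and 8.41 in the cerebellum. Its difference of -0.12 ± 0.23 was smaller than its error (adjusted p = 0.809). As with Tfrc, the cerebellum lay between the genotypes, an arrangement found in 5.87% of all genes. For Slc11a2 the margins were small, with the PtchLacZ/+ tumour 0.09 above the cerebellum and the 1-month SmoM2 tumour 0.10 below it.

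Storage was represented by the ferritin heavy chain gene Fth1, on chromosome 19. Its level was 12.49 in the PtchLacZ/+ tumour, 12.77 and 12.56 in the SmoM2 tumours at 2 months and 1 month, and 13.28 in the cerebellum. Every tumour lay below the cerebellum, by 0.50 to 0.78, and the fitted difference was -0.67 ± 0.20, a ratio of 0.630. It did not pass over all genes (adjusted p = 0.0878). Over the 8 alternative analyses its adjusted p ran from 0.0172, without the 2-month SmoM2 tumour, to 0.282, and it passed in 2 of them. Ferritin genes have processed copies elsewhere in mammalian genomes, and what these add to the probe set was not tested.

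Ftl1, the gene of the ferritin light chain, belongs to the wider iron list and is given here for comparison. It had levels of 11.46 in the PtchLacZ/+ tumour, 11.96 and 10.93 in the SmoM2 tumours at 2 months and 1 month, and 10.28 in the cerebellum. All tumours lay above the cerebellum for Ftl1 and below it for Fth1. The Ftl1 difference of 1.17 ± 0.41 did not pass (adjusted p = 0.134), and the difference between the chains was not tested.

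The ferroxidase gene Cp, on chromosome 3, rose in the tumours. Ceruloplasmin oxidises the iron that ferroportin releases, and in brain it is made mainly by astrocytes. Its level was 9.94 in the PtchLacZ/+ tumour, 9.50 and 9.96 in the SmoM2 tumours at 2 months and 1 month, and 7.43 in the cerebellum. The tumours spanned 0.45 and all stood over 2 units above the cerebellum. The rise was 2.36 ± 0.25, or 5.15-fold (adjusted p = 0.00716), and it passed in all 8 alternatives, with differences of 2.29 to 2.51 and adjusted p from 0.000647 to 0.0241.

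Astrocyte markers were read beside Cp. Among the 8 markers of astrocytes and Bergmann glia, 5 were called lower and 0 higher, and 7 lay below the cerebellum in every tumour. Their summed level was 4464 in the PtchLacZ/+ tumour, 7426 and 7094 in the SmoM2 tumours at 2 months and 1 month, and 24310 in the cerebellum. The exception was Gfap, a gene of reactive astrocytes, with levels of 8.15 in the PtchLacZ/+ tumour, 9.33 and 8.83 in the SmoM2 tumours at 2 months and 1 month, and 7.60 in the cerebellum (difference 1.17 ± 0.46, adjusted p = 0.173). The part of astrocytes or of other cells in the Cp level was not tested.

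Slc40a1, the gene of ferroportin on chromosome 1, had levels of 7.90 in the PtchLacZ/+ tumour, 8.73 and 7.64 in the SmoM2 tumours at 2 months and 1 month, and 6.94 in the cerebellum. All tumours lay above the cerebellum and the 2-month tumour was furthest from it. The difference of 1.15 ± 0.45 did not pass (adjusted p = 0.167). It passed without the 2-month SmoM2 tumour, at 0.83 ± 0.18 (adjusted p = 0.0202, with a range of 0.0202 to 0.263 over the 8 alternatives).

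**Figure D2:**
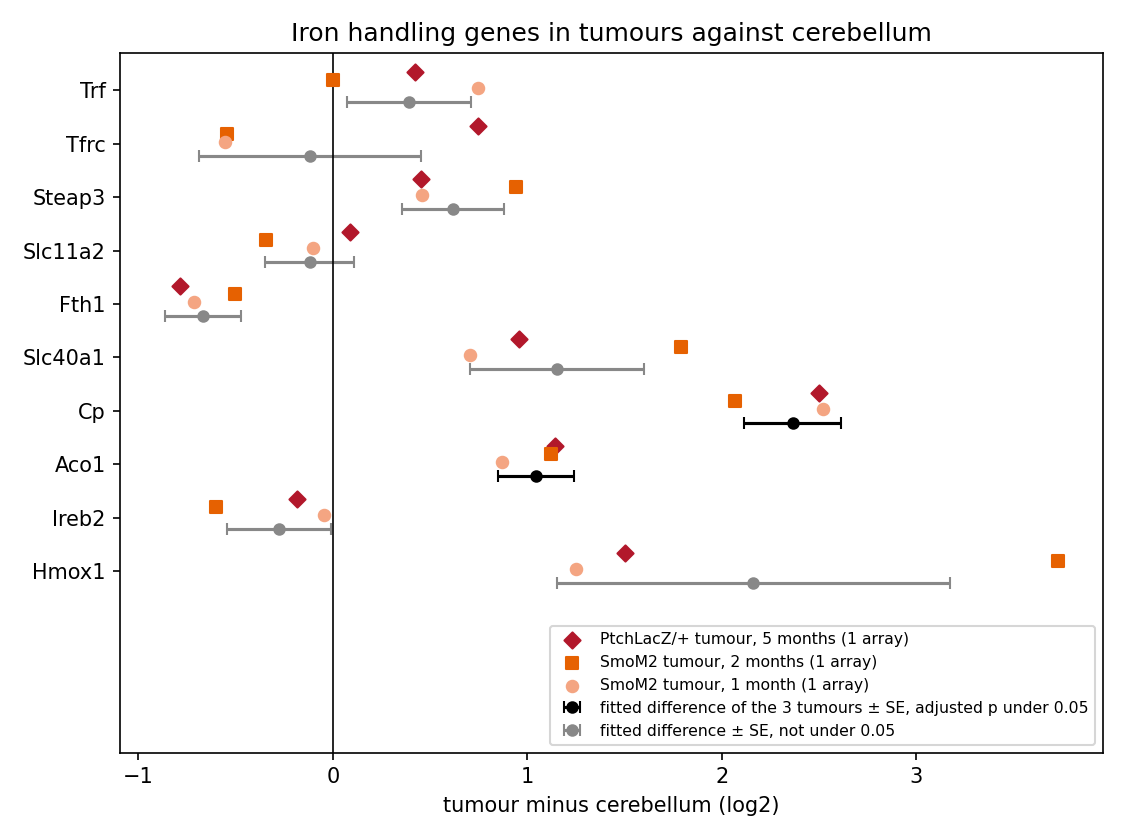
Tumour minus cerebellum difference (x axis, log2) of each gene (y axis). Coloured symbols give each tumour on its own array, and the circles with bars below them give the fitted difference of the 3 tumours ± SE, black where the adjusted p is under 0.05. Cp and Aco1 pass, Hmox1 has an SE of 1.01 and its 2-month SmoM2 tumour stands apart, and Tfrc and Slc11a2 have tumours on both sides of 0.

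Of the iron regulatory genes, Aco1 rose and Ireb2 did not pass. Aco1, on chromosome 4, encodes the cytosolic aconitase that turns into iron regulatory protein 1 when it loses its iron-sulfur cluster. Its level was 10.08 in the PtchLacZ/+ tumour, 10.06 and 9.81 in the SmoM2 tumours at 2 months and 1 month, and 8.94 in the cerebellum. Aco1 rose by 1.05 ± 0.20, or 2.07-fold (adjusted p = 0.0279), with every tumour at least 0.87 above the cerebellum. It passed in 6 of 8 alternatives. The call was lost without the PtchLacZ/+ tumour (1.00 ± 0.27, adjusted p = 0.111) and with the genotypes fitted as separate groups (1.07 ± 0.26, adjusted p = 0.0771).

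Ireb2, on chromosome 9, encodes iron regulatory protein 2, which is degraded when iron is plentiful. Its level was 10.13 in the PtchLacZ/+ tumour, 9.71 and 10.26 in the SmoM2 tumours at 2 months and 1 month, and 10.31 in the cerebellum. The difference of -0.28 ± 0.27 did not pass (adjusted p = 0.590). The 1-month tumour was only 0.05 below the cerebellum.

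Hmox1, on chromosome 8, encodes the inducible haem oxygenase, which frees iron from haem. It had levels of 7.69 in the PtchLacZ/+ tumour, 9.91 and 7.44 in the SmoM2 tumours at 2 months and 1 month, and 6.19 in the cerebellum. Every tumour lay at least 1.25 above the cerebellum, and the 2-month SmoM2 tumour was 3.73 above it. With a tumour SD of 1.36 (n = 3) the difference of 2.16 ± 1.01 did not pass (adjusted p = 0.241). Without the 2-month tumour the difference was 1.38 ± 0.18 and passed (adjusted p = 0.00395, with a range of 0.00395 to 0.320 over the 8 alternatives).

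Leaving out the 2-month SmoM2 tumour raised the number of genes that rose to 4 of 10 (Cp, Aco1, Hmox1 and Slc40a1), and 1, Fth1, fell. In that fit 13.5% of all genes rose and 16.7% fell. Without the PtchLacZ/+ tumour Cp rose and 0 of the 10 fell, where 3.15% of all genes rose and 4.70% fell. The same was found with the genotypes as separate groups, where 3.90% rose and 5.89% fell. Without the 1-month tumour 2 rose and 0 fell, against 4.98% and 6.48% of all genes. With a trended prior variance, under which 6.38% of all genes rose and 9.14% fell, Fth1 fell beside the rises of Cp and Aco1.

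The SmoM2 tumours were then set side by side by age. With 1 array each there is no test, and a difference of at least 1 unit was counted. At 2 months 2 of the 10 genes were higher than at 1 month and 0 were lower, where 1.66% and 2.05% of all genes were higher and lower. Hmox1 was higher at 2 months by 2.48 and Slc40a1 by 1.09. Next came Trf, which differed by -0.74, and Ireb2, which differed by -0.55. At any distance 6 of the 10 genes were higher at 2 months, where 59.8% of all genes were. Of these 6, Tfrc was higher by only 0.0107 and differed by -0.135 after quantile normalization. The median over the 10 genes was 0.11, against 0.08 for all genes.

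Markers of the cells that use these genes were read beside them. Both genes are active in macrophages that recycle haem iron, and ferroportin is also made by endothelium. Of 8 endothelial markers 4 were higher by at least 1 unit at 2 months than at 1 month (Pecam1, Cldn5, Cdh5 and Kdr), with a list median of 0.94. The summed level of the 10 microglia and macrophage markers was 5201 in the PtchLacZ/+ tumour, 7562 and 5083 in the SmoM2 tumours at 2 months and 1 month, and 1080 in the cerebellum. Of these 10 markers 5 rose in the tumours, and 0 differed by 1 unit between the SmoM2 tumours. The sum is weighted to Lyz2, which had the highest level of the list in every tumour. Gene by gene, 7 were higher at 2 months than at 1 month, and Csf1r, Itgam and Cx3cr1 were lower. The list median was 0.19, against 0.08 for all genes. The part of these cells in the levels of Hmox1 and Slc40a1 was not tested.

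**Figure D3:**
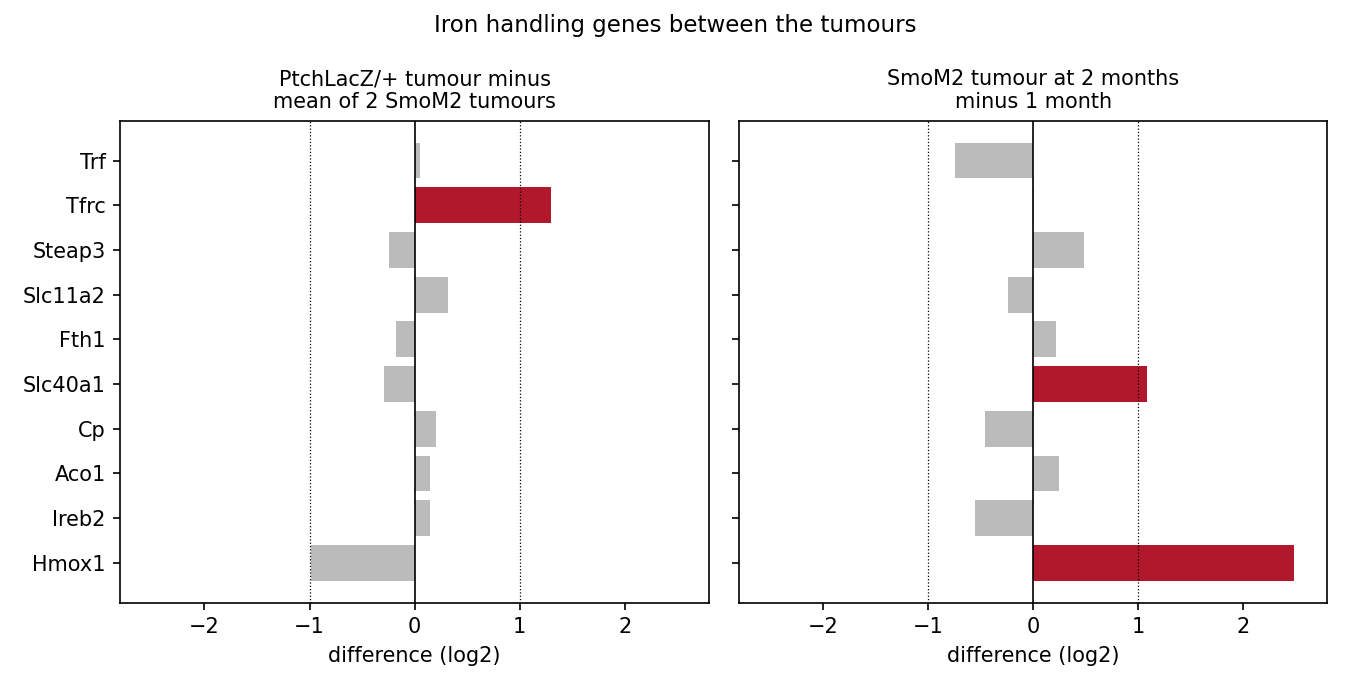
Differences (x axes, log2) of the 10 genes (y axis) between the tumours. Left, the PtchLacZ/+ tumour minus the mean of the 2 SmoM2 tumours, and right, the SmoM2 tumour at 2 months minus that at 1 month. Red bars are at least 1 unit (dotted lines), on the left also outside the SmoM2 range. Tfrc is at 1.30 on the left, and Hmox1 and Slc40a1 are at 2.48 and 1.09 on the right.

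The wider set of iron and haem genes held 72 entries in 6 lists, of which 67 had a usable probe set. In the tumours 4 rose (5.97%) and 8 fell (11.9%), shares near those of all genes (6.70% and 9.30%). The median difference was -0.20. A level under the lower quartile of its array occurred in 10 of the 67. By the rules used above, 0 of the 67 lay apart between genotypes, and 1, Ftl1, was higher at 2 months than at 1 month in the SmoM2 tumours. Without the PtchLacZ/+ tumour, without the 1-month SmoM2 tumour, or with the genotypes as separate groups, 2 rose (Lcn2 and Steap4) and 2 fell (Steap2 and Nfs1). Without the 2-month tumour 7 rose and 17 fell, where 13.5% and 16.7% of all genes did.

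Iron transport genes outside the 10 moved both ways, with 3 of 15 higher and 2 lower (median 0.02), against 6.70% and 9.30% of all genes. Lcn2, the gene of the siderophore-binding lipocalin 2, rose by 5.51 ± 0.34 (adjusted p = 0.00340), with levels of 10.46 in the PtchLacZ/+ tumour, 10.78 and 11.28 in the SmoM2 tumours at 2 months and 1 month, and 5.33 in the cerebellum. The metalloreductase gene Steap4 rose by 2.01 ± 0.35 (adjusted p = 0.0230), and its relative Steap2 fell by 2.37 ± 0.24 (adjusted p = 0.00694). Steap2 had 2 probe sets, and their mean gave -0.82 ± 0.24, which did not pass (adjusted p = 0.0929). The fall is thus that of the brighter probe set, and the other one was higher in the tumours. The endolysosomal channel gene Mcoln1, whose product can release iron from lysosomes, fell by 0.97 ± 0.17 (adjusted p = 0.0226), a call lost when the PtchLacZ/+ tumour (adjusted p = 0.0990) or the 1-month tumour (adjusted p = 0.0678) was left out.

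Of the 6 ferritin and iron chaperone genes 0 passed by limma, and at an unadjusted p under 0.05 2 were higher and 0 lower (13.8% and 15.9% of all genes). Beside Ftl1, the iron chaperone gene Pcbp1 differed by 0.88 ± 0.22 (adjusted p = 0.0555) and passed in 3 of 8 alternatives. Ncoa4, whose product delivers ferritin to lysosomes, differed by -0.29 ± 0.24 (adjusted p = 0.519), and Bdh2 by -0.27 ± 0.37 (adjusted p = 0.717). The Bdh2 level in the PtchLacZ/+ tumour, 5.12, lay under the lower quartile of that array, 5.14. Of 10 genes of iron sensing and hepcidin signalling, Neo1 rose and Bmp6 fell (median 0.01). Neo1, which encodes the hemojuvelin and netrin receptor neogenin, rose by 1.23 ± 0.25 (adjusted p = 0.0341). Bmp6, the ligand that raises hepcidin in liver, fell by 0.86 ± 0.19 (adjusted p = 0.0413). Leaving out the PtchLacZ/+ tumour ended both calls (adjusted p = 0.108 for Neo1 and 0.124 for Bmp6), as did leaving out the 1-month tumour (adjusted p = 0.0739 for Neo1 and 0.110 for Bmp6). Bmp6 also missed with a trended prior variance (adjusted p = 0.0587). The hypoxia factor gene Hif1a differed by -0.72 ± 0.26 (adjusted p = 0.149), and Erfe by 0.19 ± 0.19 (adjusted p = 0.601).

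Of 9 haem synthesis genes 3 fell and 0 rose (median -0.59), where 9.30% and 6.70% of all genes did. Alad, which encodes the enzyme that forms porphobilinogen, fell by 1.22 ± 0.26 (adjusted p = 0.0404), and the porphyrin transporter gene Abcb6 fell by 1.18 ± 0.27 (adjusted p = 0.0473). The other was the erythroid synthase gene Alas2, chosen here after its value was seen, which differed by -0.96 ± 0.21 (adjusted p = 0.0422). Alad missed the threshold when the PtchLacZ/+ tumour (adjusted p = 0.112) or the 1-month tumour (adjusted p = 0.0622) was left out, and so did Abcb6 (adjusted p = 0.106 and 0.0917). Urod and Ppox differed by 0.41 ± 0.26 and 0.23 ± 0.23 and did not pass (adjusted p = 0.392 and 0.604).

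Of 11 haem transport and breakdown genes 0 passed by limma (median -0.20), and at an unadjusted p under 0.05 2 were higher and 2 lower (13.8% and 15.9% of all genes). The biliverdin reductase genes differed in sign, with Blvrb at 0.78 ± 0.19 (adjusted p = 0.0585) and Blvra at -0.85 ± 0.32 (adjusted p = 0.158), and a test of that contrast was not run. The haem transporter gene Slc48a1 differed by -0.94 ± 0.28 (adjusted p = 0.0938) and the haptoglobin gene Hp by 0.60 ± 0.18 (adjusted p = 0.0994). Quantile normalization brought Blvrb past the threshold (0.81 ± 0.17, adjusted p = 0.0377). So did leaving out the 2-month tumour, at 0.70 ± 0.15 (adjusted p = 0.0213), and its adjusted p ran up to 0.176 over the 8 alternatives.

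Of 16 measured genes of mitochondrial iron and iron-sulfur clusters 2 fell and 0 rose (median -0.52), where 9.30% and 6.70% of all genes did. Without any test, 12 of the 16 lay below the cerebellum in every tumour, where 32.0% of all genes did so. Nfs1, the cysteine desulfurase gene that supplies sulfur to the clusters, fell by 1.42 ± 0.18 (adjusted p = 0.0108) and passed in all 8 alternatives. The assembly gene Isca1, chosen here after its value was seen, differed by -0.98 ± 0.20 (adjusted p = 0.0364). Bola3 differed by -1.12 ± 0.37 (adjusted p = 0.117), Cisd2 by 0.35 ± 0.17 (adjusted p = 0.245) and Ciapin1 by 0.29 ± 0.26 (adjusted p = 0.566). Aco1, whose product takes up such a cluster in the cytosol, rose in the same samples.

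**Figure D4:**
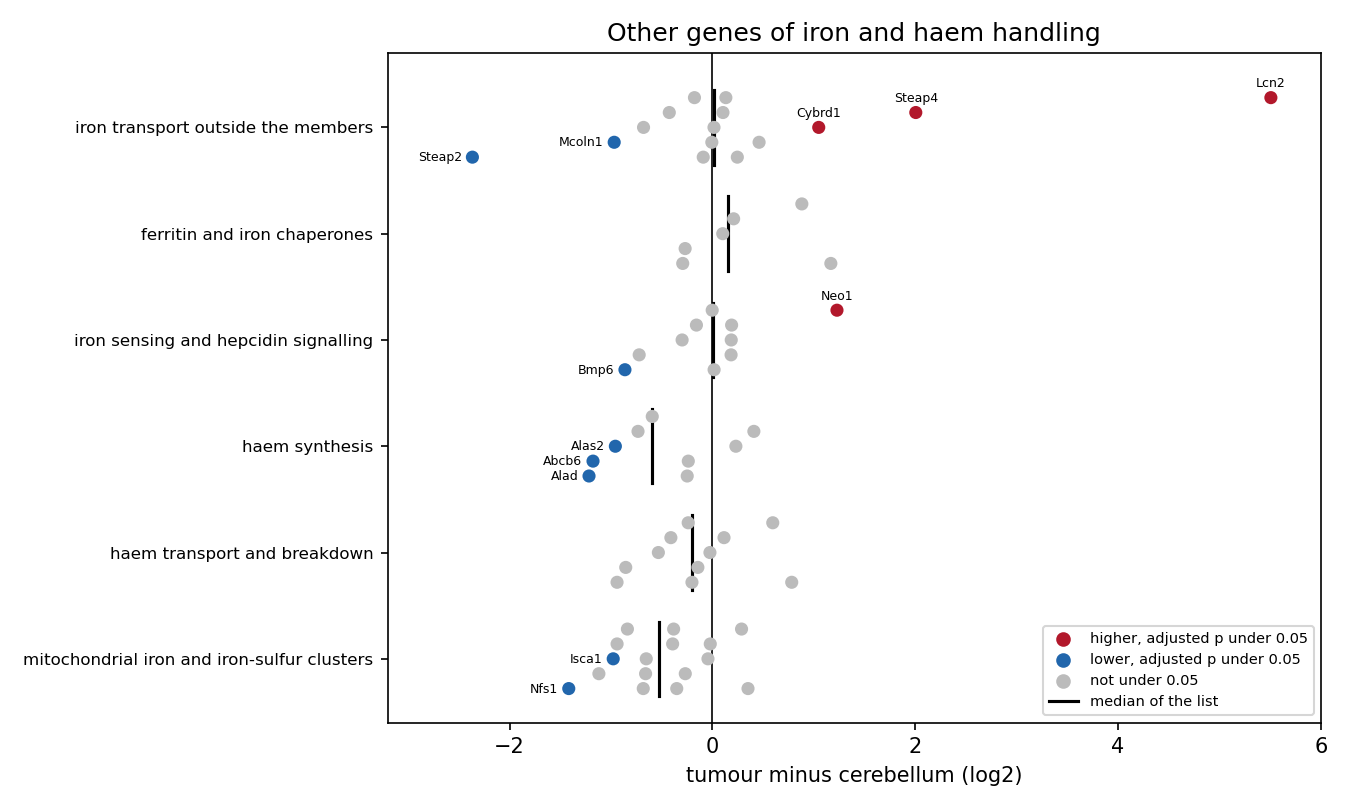
Tumour minus cerebellum difference (x axis, log2) of the 67 other iron and haem genes in 6 lists (y axis), 1 point for each gene. Red points rose and blue points fell at an adjusted p under 0.05, grey points did not pass, and black bars are list medians. Lcn2 stands at 5.51, and the median is lowest for haem synthesis at -0.59.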

How the data were processed

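Total RNA of 3 mouse medulloblastomas and 1 cerebellum was hybridised to Affymetrix Mouse Gene 1.0 ST arrays, per the labels. The authors deposited 1 table of 35557 probe sets as log2 values. The submitters' processing notes name Affymetrix Expression Console. Version, summarisation and normalization are not given in the sources, and the log2 scale was read from the range, 2.71 to 14.9. The labels do not say whether samples came from separate animals, so p-values measure only the spread between these samples, and 4 arrays limit the precision.

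Names came from the platform annotation, by which 21789 probe sets had a single symbol, 1621 several and 12147 none. For each of 19938 genes the probe set with the highest mean was used, unfiltered. Symbols and chromosomes were updated through RefSeq (GRCm38.p6). Coordinates are given only for the RefSeq promoter windows. Tumours were compared with the cerebellum in limma version 3.58.1 (R version 4.3.3, lmFit and eBayes, 2 residual degrees of freedom), with Benjamini-Hochberg adjustment over all genes. The script was tested on simulated data. Between tumours only differences were described. Values after ± are limma standard errors unless SD is written.

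The 10 genes and the lists were chosen with earlier results of these data known. The text names all 10, from each of 6 iron and haem lists the 2 largest positive and 2 largest negative differences, the 3 profiles closest to Tfrc, and markers a result turns on. Alternatives were quantile normalization, a filter on level, the mean of probe sets, a trended prior variance, genotypes as separate groups, and each tumour left out.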

Additional observations from a re-analysis of the deposited data

Results flagged for a closer look

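For Tfrc and Slc11a2 the PtchLacZ/+ tumour and both SmoM2 tumours lay on opposite sides of the cerebellum. The PtchLacZ/+ tumour minus the SmoM2 mean was 1.30 for Tfrc and 0.31 for Slc11a2 on the log2 scale. Such an arrangement was present in 1170 of 19938 genes (5.87%). The PtchLacZ/+ tumour exceeded the cerebellum by 0.75 for Tfrc and by only 0.09 for Slc11a2. The difference between genotypes was not tested, it was known for Tfrc when the genes were chosen, and both effects share the 1 cerebellum. No group had the 4 samples needed to look for an outlying sample.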

How the results depend on the processing

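Tfrc changed sign against the cerebellum under quantile normalization (0.0138), with the genotypes as separate groups (0.10) and when a tumour was left out (-0.55 to 0.10), never past the threshold. The number of the 10 genes that rose, 2, was 1 with the genotypes as separate groups and 1 to 4 when each tumour was left out. The number that fell, 0, was 1 with a trended prior variance (Fth1, adjusted p = 0.0369) and 0 to 1 with a tumour left out. Of the 67 other genes, 4 rose and 8 fell, against 2 and 2 with the genotypes as separate groups. With a tumour left out 2 to 7 rose and 2 to 17 fell. The count of genes apart between genotypes, 1, was 1 to 2 with a SmoM2 tumour left out. The cause of these changes was not tested, beyond the fewer samples of the fits. Over all genes the calls numbered 3191, and 6010, 2284 and 1565 without the 2-month SmoM2, 1-month SmoM2 and PtchLacZ/+ tumour, and 1951 with the genotypes as separate groups. No paired analysis was possible because the labels give the samples no shared replicate numbers. Levels under the lower quartile, as in 10 of the 67 genes, are not shown to be above background, which limits their differences.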

Other observations

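Genes of the antioxidant response, in which Hmox1 is induced, and genes of membrane lipid peroxidation were read after the values above had been seen. They carry no test. The antioxidant list holds the regulators Nfe2l2, Keap1 and Bach1 beside induced genes. The lipid list holds Acsl4, Lpcat3 and Alox15, which promote peroxidation, beside protective genes. In the SmoM2 tumours all 10 antioxidant response genes were higher at 2 months than at 1 month, by a median of 0.28, against 0.08 for all genes, of which 59.8% were higher at 2 months. The smallest of these differences was 0.0084, for Bach1. Other lists lay the same way. Of the 6 lipid peroxidation genes, of both kinds, 5 were higher at 2 months (median 0.38). So were 13 of 16 genes of mitochondrial iron and iron-sulfur clusters (0.33) and 8 of 9 haem synthesis genes (0.26). Of 7 proliferation markers 5 were higher (0.35). Quantile normalization lowered the 2-month minus 1-month difference of each of the 10 iron genes, for Aco1 from 0.25 to 0.11. It was not applied to these list counts, so small differences such as that of Bach1 are not shown to be free of array scale. None of the 10 antioxidant genes differed by as much as Hmox1, which was 2.48 higher at 2 months. The quinone reductase gene Nqo1 had levels of 5.13 in the PtchLacZ/+ tumour, 5.64 and 5.43 in the SmoM2 tumours at 2 months and 1 month, and 6.23 in the cerebellum. Srxn1 (sulfiredoxin) had levels of 8.03 in the PtchLacZ/+ tumour, 8.32 and 7.94 in the SmoM2 tumours at 2 months and 1 month, and 9.03 in the cerebellum. Nqo1 and Srxn1 were thus lower in every tumour than in the cerebellum, the side opposite to Hmox1. The Nqo1 level in the PtchLacZ/+ tumour lay under the lower quartile of its array and is not shown to be above background. The thioredoxin reductase gene Txnrd1 was on the same side as Hmox1, with levels of 9.87 in the PtchLacZ/+ tumour, 10.04 and 9.76 in the SmoM2 tumours at 2 months and 1 month, and 8.12 in the cerebellum.

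The cystine transporter gene Slc7a11 had levels of 6.55 in the PtchLacZ/+ tumour, 7.27 and 7.16 in the SmoM2 tumours at 2 months and 1 month, and 9.28 in the cerebellum. Its partner subunit gene Slc3a2 lay on the other side, with levels of 11.81 in the PtchLacZ/+ tumour, 12.25 and 11.53 in the SmoM2 tumours at 2 months and 1 month, and 11.11 in the cerebellum. Gpx4, the lipid peroxide reductase gene, had levels of 10.51 in the PtchLacZ/+ tumour, 11.04 and 10.42 in the SmoM2 tumours at 2 months and 1 month, and 10.95 in the cerebellum, so that the cerebellum lay within the range of the tumours.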
